A study of Arabidopsis thaliana with 28 samples.

Results

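The genes described here are 73 genes of the Arabidopsis root whose transcript rose by a moderate amount after 2 h at 1% oxygen. They were chosen from probe sets that match 1 gene and have a mean signal of 40 or more over all 28 arrays, and the rule required a log2(signal + 6) difference, 1% minus 21% oxygen at 2 h, between 0.7 and 2.0 in replicate letter E and again in replicate letter F. That left 73 genes, each with 1 probe set, of 6098 genes with a mean signal of 40 or more and of 13355 genes in all. Another 37 genes reached 0.7 in both letters but lay over the upper bound in at least 1 of them. Roots came from seedlings of ecotype col2, grown on vertical agar with sucrose under a 12 h day, then moved to continuous darkness under a gas stream with carbon dioxide and nitrogen in which only the oxygen level differed. The groups were 1%, 4% and 8% oxygen with 2 arrays each at 0.5 and 2 h, 1% and 4% with 2 and 8% with 3 at 48 h, and normal air (21%) with 3 arrays at each of these durations. Normal air therefore shares the darkness and the gas stream with every lowered level. Whole roots were taken, so fewer cells of a type and less RNA per cell cannot be told apart, and the labels do not say whether replicate letters stand for separate batches of plants, so p-values measure the spread between these arrays.

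Plant cells short of oxygen lose mitochondrial ATP production and turn to fermentation. Transcription factors of the ERF group VII, which are destroyed through an oxygen-dependent degron while oxygen is plentiful, are known to switch on a compact set of genes such as those for alcohol dehydrogenase and pyruvate decarboxylase. Around that core, low oxygen is also known to alter transcripts of energy signalling, hormone, calcium and protein turnover genes by smaller amounts. Of a list of 51 loci known for induction by low oxygen, 24 had a probe set bright enough for the rule. Of these, 22 lay over the upper bound, 19 of them in both letters. The other 2 of the 24, AT1G26270 and AT1G74940, are among the 73. Of all 6129 probe sets bright enough for the rule, 37 lay over the upper bound, 29 of them in both letters. These counts use the values that chose the genes, and the list was made with earlier results of these data known. They are therefore a description.

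Values that chose the genes are given as a description. In letter E the differences ran from 0.70 to 1.99 with a median of 1.12, and in letter F from 0.71 to 1.90 with a median of 1.18, which is 2.18-fold and 2.26-fold on the scale of signal + 6. In letter E alone 146 genes' probe sets lay within the bounds and in letter F alone 217. Just inside the lower bound stood EXO at 0.70 and CCT2 at 0.71, and just outside it WES1 at 0.70 (0.6985) and AT5G41270 at 0.69. AT5G47060 at 1.99 and AT4G34950 at 1.90 stood just inside the upper bound, with CP5 and AT3G02555 just outside, both at 2.04. The third control of 2 h, letter D, took no part in the choice, but the 1% arrays set against it did. Values above control D were thus favoured by the choice and are also a description. On the 1% array of letter E the 73 genes had a median of 1.25 against control D, with 70 above 0. On the 1% array of letter F the median was 1.30, with 69 above 0. Over the probe sets bright enough for the rule the medians were -0.0935 on array E and -0.0833 on array F. Both 1% arrays lay above control D for 69 genes and below it for AT3G47510, EXO and AAH, while AT2G38370 had control D between them.

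Of the root markers, PYK10 had signals of 2715 to 8962 over the arrays, and the root hair expansins EXPA7 and EXPA18 had medians of 91.5 and 109. The medians of 5 probe sets of leaf photosynthesis ran from 28.1 to 221, and levels of different probe sets cannot be compared. The 3 arrays of letter B, all of 48 h, reached top signals of 11589 to 16530, against 3774 to 6389 on the other 25 arrays. Tests used limma on log2(signal + 6) over the 24 arrays that the rule did not use, with Benjamini-Hochberg adjustment over all 13513 single-gene probe sets. This leaves 1% at 2 h out and gives normal air at 2 h a single array, letter D. A gene was called at an adjusted p under 0.05, and separation means that all arrays of a group lay beyond all arrays of the other. Arrays of letter F at other levels and durations share that letter with arrays the rule used, and the mean signal the rule asks for was taken over all arrays.

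At 2 h the 73 genes, chosen for their level at 1% oxygen, also stood above control D on the median at 4% and, by a smaller amount, at 8%, where 52 of 73 lay above 0. The median difference from control D was 0.68 at 4% and 0.24 at 8%, against -0.051 and -0.093 over the 6129 probe sets of the same mean signal. Between 4% and 8% the median was 0.43, with 67 of 73 genes higher at 4%, against a median of 0.031. All 4% arrays lay above all 8% arrays for 42 genes (57.5%), against 11.5% of the bright probe sets, and below them for 0, against 7.95%. For 28 of the 73 genes (38.4%), against 2.19% of the bright probe sets, the 4% arrays lay above the 8% arrays and these above control D.

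No single gene of the 73 passed the test at 2 h. Between 4% and 8%, limma called 0 of 13513 probe sets (0%), and 2 of the 73 were higher at an unadjusted p under 0.05, against 0.363% of all probe sets. Against control D, limma called 0.0592% of all probe sets at 4% and 0.0222% at 8%, none of them among the 73, of which 11 and 2 were higher at an unadjusted p under 0.05, against 0.518% and 0.570% of all probe sets. Both 4% arrays lay above control D for 57 of the 73 genes, against 29.8% of the bright probe sets, and below it for 3, against 38.1%. Both 8% arrays lay above control D for 40 genes, against 27.0%, and below it for 17, against 40.4%. With letter as a block the median at 8% was 0.44.

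The gene with the largest separated step between 4% and 8% was AT1G67910, with signals, in the order of the replicate letters, of 211 and 253 at 1%, 208 and 137 at 4%, 88.1 and 91.8 at 8% and 108, 58.7 and 71.2 in normal air. Its 4% minus 8% difference was 0.86 ± 0.43 (SE), with adjusted p = 1.00 by limma, and the 4% arrays did not overlap those of 8%. AT1G74940, a protein of the FCS-like zinc finger (FLZ) family, whose members bind the energy-sensing kinase SnRK1, had 557 and 471 at 1%, 398 and 251 at 4%, 184 and 163 at 8% and 117, 148 and 124 in normal air. Both arrays of each of its levels lay above both of the next, and the 8% arrays lay above all controls. Here and below, the 1% arrays of 2 h and controls E and F were used by the rule. Their place at the ends of the order was thus favoured by the choice and is given as a description. AT3G27770 had 1455 and 1381 at 1%, 1381 and 938 at 4%, 783 and 508 at 8% and 517, 453 and 408 in normal air, so that 1 array of 8% reached into the range of the controls. AT4G34950, a transporter-like protein of the major facilitator superfamily, had 128 and 129 at 1%, 100.4 and 69.2 at 4%, 50.6 and 41.4 at 8% and 39.4, 40.4 and 30.3 in normal air. The 8% arrays of AT1G74940 and AT4G34950 thus lay above all controls, while those of AT1G67910 and AT3G27770 overlapped them.

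AT1G26270, of the phosphatidylinositol 4-kinase family, had 403 and 505 at 1%, 459 and 275 at 4%, 249 and 186 at 8% and 293, 174 and 153 in normal air. AT1G33050 had 286 and 362 at 1%, 310.0 and 251 at 4%, 189.8 and 149.5 at 8% and 151, 156 and 116 in normal air, with both 4% arrays above every 8% and control array. For AT1G26270 the 8% arrays lay within the range of the controls, where control D was the highest. TIL, the temperature-induced lipocalin, a membrane-protecting protein, had 1185 and 1015 at 1%, 737 and 726 at 4%, 455 and 522 at 8% and 312, 467 and 422 in normal air. AT1G20270, a prolyl 4-hydroxylase, an enzyme class that uses oxygen as a substrate, had 147 and 125 at 1%, 66.6 and 62.6 at 4%, 39.6 and 48.6 at 8% and 35.6, 44.6 and 36.4 in normal air. In TIL and AT1G20270 both 4% arrays lay below the 1% arrays and above all controls, and the 8% arrays overlapped the controls.

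**Figure D1:**
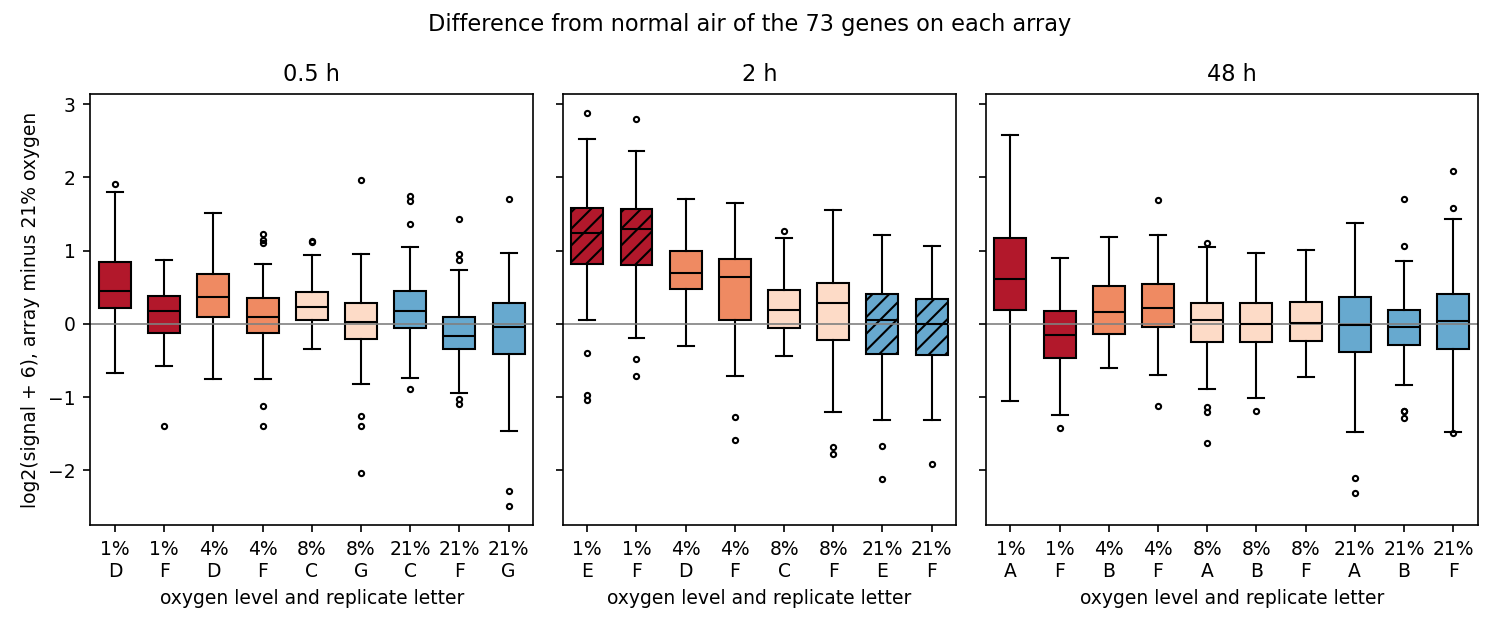
Box plots of the 73 genes on each array, as the log2(signal + 6) difference from normal air of the same duration (y axis), by oxygen level and replicate letter (x axis), in a panel per duration; boxes span the quartiles, lines are medians, whiskers reach 1.5 times the box height and circles lie beyond. The baseline is control D at 2 h, the mean of the controls at 0.5 and 48 h, and for a control array the mean of the others; hatched boxes are the 4 arrays the rule used. Medians at 2 h are 1.25 and 1.30 at 1%, and 0.69 and 0.64 at 4%. The choice of the genes favoured high values on the 1% arrays of 2 h, so this difference is a description. The 1% arrays of 48 h stand apart at 0.61 and -0.15.

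After 0.5 h the same genes were above normal air on the median at each lowered level. Their medians were smaller than at 2 h, but the genes were chosen for their rise at 2 h. That choice favours larger values at 2 h, and a peak at 2 h was not tested. The median difference was 0.34 at 1%, 0.23 at 4% and 0.16 at 8%, against medians within 0.005 of 0 for the bright probe sets at each of the levels, and 59, 60 and 52 of the 73 genes lay above 0. Both 1% arrays lay above all 3 controls for 21 genes, against 6.66% of the bright probe sets, and below them for 1 gene, against 6.95%. At 4%, 14 genes were separated upwards, against 5.71%, and at 8% there were 8, against 2.45%. Separated downwards were 2 genes at 4% and 0 at 8%, for which no share of the bright probe sets was taken. The order 1% over 4% over 8% over normal air held for the mean differences of 20 of the 73 genes (27.4%), against 6.89%. None of the 73 was called by limma at 0.5 h, where 0.0518%, 0.0444% and 0.0148% of all probe sets were called at 1%, 4% and 8%, and 7, 4 and 0 of the 73 were higher at an unadjusted p under 0.05, against 0.955%, 0.622% and 0.207% of all probe sets.

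The early shift differed between the arrays of a level. On the 1% array of letter D the median of the 73 genes was 0.45, and on that of letter F it was 0.18. At 4% the arrays of letters D and F had medians of 0.37 and 0.088, and at 8% those of letters C and G had 0.24 and 0.027. No control of letter D exists at 0.5 h, while control F had the lowest median of the controls, -0.16 against the mean of the other two, and control C the highest, 0.17. Within letter F the medians were 0.17 at 1%, with 53 of 73 genes above 0, and 0.16 at 4%, with 52, so that these levels did not step within the letter. At 8%, run with other letters, the medians were 0.071 within letter C and 0.093 within letter G. With letter as a block the medians were 0.21 at 1%, 0.13 at 4% and 0.12 at 8%, and the order of the levels was not tested.

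The largest separated difference at 0.5 h belonged to AT5G47060, also of the FLZ zinc finger family, with signals of 326 and 151 at 1%, 277 and 142 at 4%, 177 and 142 at 8% and 123, 88.8 and 74.4 in normal air. All its low-oxygen arrays lay above all 3 controls, and the 1% difference was 1.20 ± 0.43 (SE), adjusted p = 1.00 by limma. AT1G74940, its relative, had 364 and 175 at 1%, 318 and 185 at 4%, 224 and 126 at 8% and 151, 107 and 91.3 in normal air, a difference of 1.11 ± 0.53 (SE) at 1%. AT5G10210 had 275 and 114 at 1%, 192 and 95.8 at 4%, 141 and 100.4 at 8% and 111, 51.1 and 73.7 in normal air. In AT5G10210 the higher array of each low level stood well apart from the lower one and above all controls. The lower array cleared the highest control only at 1%, and there narrowly, at 114 against 111.

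AT4G40070, a RING-type ubiquitin ligase of the ATL family, had 175 and 83.7 at 1%, 109 and 80.5 at 4%, 87.0 and 32.8 at 8% and 70.1, 50.4 and 38.8 in normal air. Its 8% arrays spanned the whole range of the controls while those of 1% and 4% lay above it. The B3 domain transcription factor AT3G11580 had 88.7 and 49.2 at 1% and 42.3, 36.2 and 30.7 in normal air, a difference of 0.78. AT1G60010 had 173 and 107 at 1% and 91.4, 71.6 and 71.1 in normal air, a difference of 0.77. In both genes the 1% arrays lay above all controls. AT3G59910, an ankyrin repeat protein, was the 1 gene separated downwards, with 33.0 and 37.2 at 1% and 48.6, 50.9 and 72.2 in normal air, a difference of -0.60 ± 0.35 (SE). AT4G33980, whose mean difference of 1.37 was the highest of the 73, had 223 and 103 at 1% and 131, 72.5 and 15.3 in normal air, so that its groups overlapped. It is named for that mean after its values were seen.

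**Figure D2:**
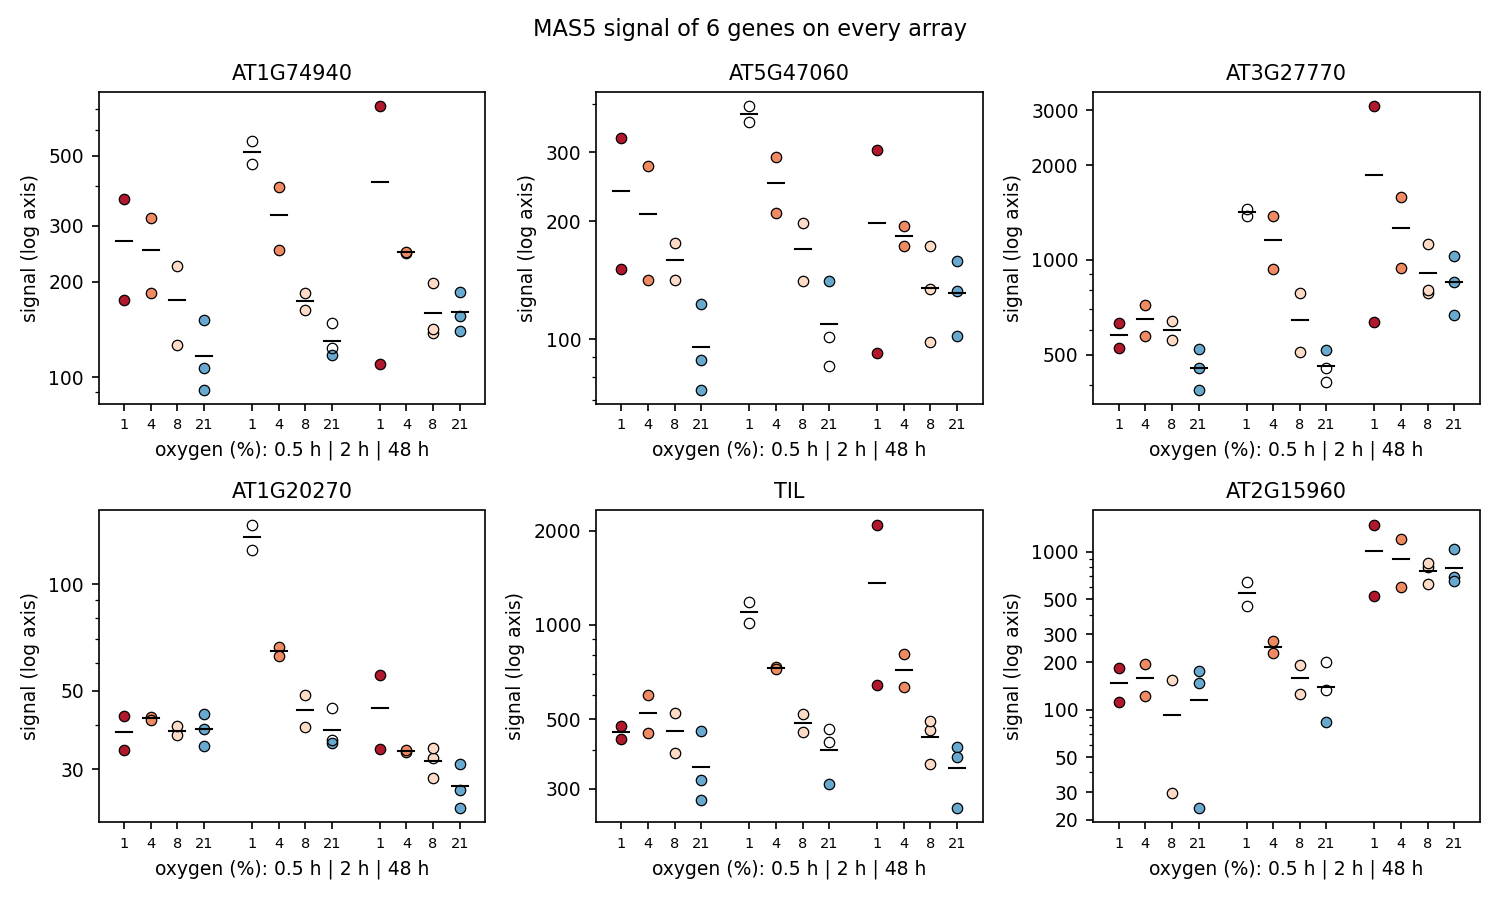
Signal (y axis, log scale) of 6 genes on every array, by oxygen level within 0.5, 2 and 48 h (x axis); each circle is an array, open circles are the 4 arrays the rule used, and bars are group means. The group means of AT1G74940 and AT5G47060 step down from 1% to 21% at 0.5 and 2 h. Those of AT3G27770, AT1G20270 and TIL do so at 2 h. The 1% and 21% ends of the steps at 2 h were favoured by the choice. At 0.5 h AT3G27770 has every low-oxygen array above its controls, and the 1% arrays of AT1G20270 and TIL overlap theirs. AT2G15960 is higher at 48 h at all levels.

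After 48 h the medians of the 73 genes were again smaller than at 2 h, the duration at which the genes were chosen. The 2 arrays at 1% disagreed in direction. The median difference of the 73 genes was 0.19 at 1%, 0.19 at 4% and 0.014 at 8%, against -0.031, -0.024 and 0.001 for the bright probe sets, with 53, 54 and 37 genes above 0. The 1% array of letter A had a median of 0.61, with 62 of 73 genes above the mean of the controls, and the 1% array of letter F had -0.15, with 26. Against the control of the same letter the medians were 0.62 in letter A and -0.20 in letter F. Without array A the median at 1% was thus -0.15 and without array F it was 0.61. At 4% the arrays of letters B and F had medians of 0.16 and 0.21, and without the control of letter F the median at 4% was 0.32. Over all 13513 probe sets the median at 1% was -0.11, lower than that of the 73 genes.

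Both 1% arrays lay above all 3 controls for 8 of the 73 genes, against 5.16% of the bright probe sets, and below them for 2, against 6.35%. At 4% there were 15 genes above, against 5.48%, and at 8% there were 0, against 0.963%. Below the controls lay 2 genes at 4% and 1 at 8%, for which no share of the bright probe sets was taken. Limma called 0 of the 73 genes at 48 h at any level, where 0.0370%, 0.0370% and 0% of all probe sets were called at 1%, 4% and 8%. At an unadjusted p under 0.05, 7 of the 73 were higher and 2 lower at 1%, against 1.11% and 3.22% of all probe sets, and 4 and 0 were higher at 4% and 8%, against 1.90% and 0.792%. With letter as a block, which pairs arrays at 48 h, limma called TIL, AT5G05790 and AT2G31390 as higher at 1%, where 0.496% of all probe sets were, and AT5G10210 at 4%, where 0.104% were. Without the 1% array of letter F it called 8 of the 73 genes as higher at 1%, against 0.215% of all probe sets, from the lone array of letter A, which was assumed to vary like the arrays of the other groups.

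TIL had 2089 and 642 at 1%, 636 and 806 at 4%, 464, 361 and 495 at 8% and 407, 260.4 and 379 in normal air, and the 1% difference of 1.74 ± 0.36 (SE) had adjusted p = 0.153 by limma, or a difference of 1.57 that passed with the block. All its 1% and 4% arrays stood above the highest control. AT5G05790, a MYB-related transcription factor, had 241 and 86.2 at 1%, 82.4 and 73.7 at 4%, 94.5, 55.5 and 51.3 at 8% and 59.4, 58.3 and 45.3 in normal air, with a 1% difference of 1.33 ± 0.36 (SE), adjusted p = 0.631 by limma. As in TIL, the 4% arrays also cleared the controls, while 1 of the 8% arrays did so widely. AT2G31390, a fructokinase of sugar metabolism, had 2552 and 1337 at 1%, 2303 and 1315 at 4%, 1167, 1738 and 1063 at 8% and 1009, 1371 and 902 in normal air, so that the groups overlapped across letters.

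GID1A, a receptor of gibberellin, had 236 and 275 at 1% and 169.8, 126 and 188 in normal air at 48 h, a difference of 0.66. AT1G20270 had 55.5 and 34.2 at 1% and 23.3, 26.2 and 31.1 in normal air, a difference of 0.60. AT4G17940, a tetratricopeptide repeat protein, had 347 and 234 at 1% and 182, 215 and 193 in normal air, a difference of 0.53. Both 1% arrays of each of these genes lay above the controls. Below the controls on both 1% arrays was AT5G24490, related to a ribosomal subunit protein, with 209 and 239 at 1% against 279.7, 429.6 and 412 in normal air, a difference of -0.70. AT5G11070 was below them too, with 20.7 and 31.8 at 1% against 47.6, 35.1 and 42.9 in normal air, a difference of -0.58. Some genes instead showed the split between letters A and F. AT3G27770 had 3087 and 634 at 1% against 1031, 849 and 667 in normal air, and AT1G74940 had 716 and 109.9 against 185, 140.3 and 156, each with the array of letter A above and the array of letter F below all controls.

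**Figure D3:**
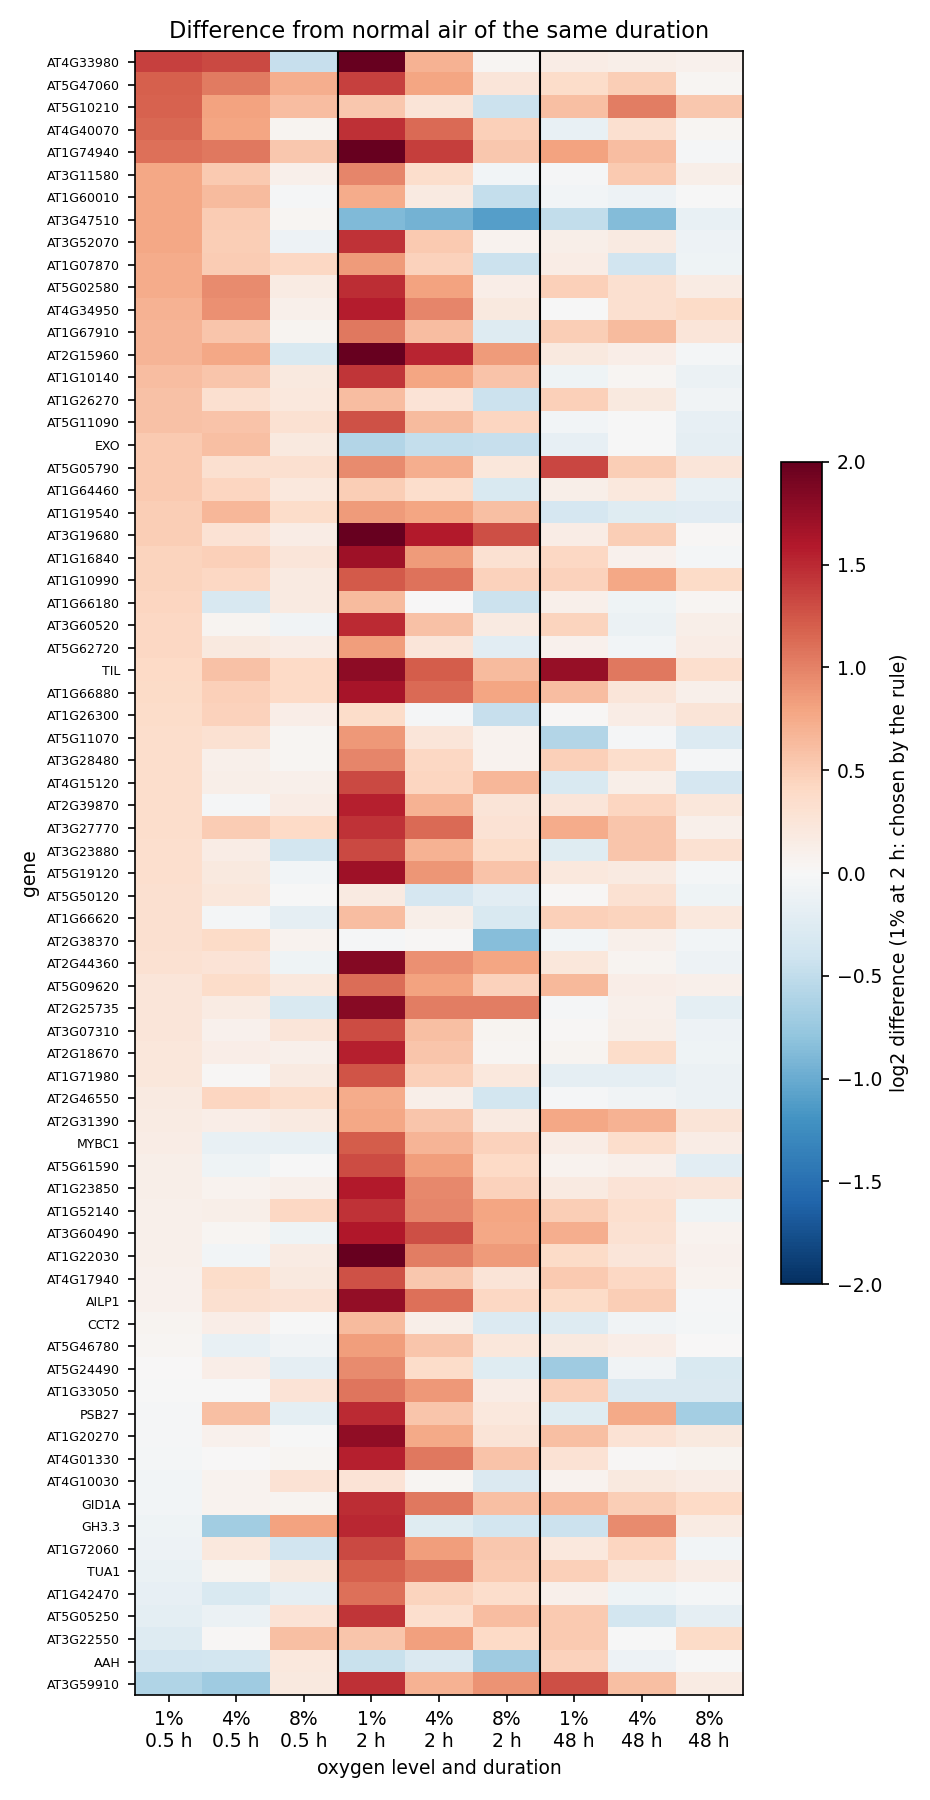
Log2(signal + 6) differences from normal air of the same duration for the 73 genes (rows, ordered by the difference at 1% for 0.5 h), at 1%, 4% and 8% oxygen for 0.5, 2 and 48 h (columns; colours end at a size of 2, with larger values shown at that end). The 1% column of 2 h, set against control D, was chosen by the rule; the 4% column beside it has a median of 0.68 and the 8% column of 48 h one of 0.014.

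Few of the genes were separated from normal air at 1% both before and after 2 h. At 0.5 h and at 48 h alike, 2 of the 73 genes (2.74%) were separated upwards, against 0.751% of the bright probe sets, while 19 were separated upwards at 0.5 h with overlap at 48 h, against 5.50%, and 5 the other way round, against 4.00%. For 44 genes (60.3%) the arrays overlapped at both durations, against 77.0% of the bright probe sets, 2 were separated downwards at 48 h alone, against 5.35%, and AT3G59910 was below the controls at 0.5 h and above them at 48 h. It had 99.4 and 112 at 1% against 34.7, 38.9 and 52.8 in normal air at 2 h, and 202 and 77.1 against 33.0, 46.7 and 69.3 at 48 h. The 1% response at 48 h minus that at 0.5 h had a median of -0.17 over the 73 genes and -0.043 over the bright probe sets. Limma called 0.0148% of all probe sets for this difference and 0 of the 73 genes, of which 2 were higher and 1 lower at an unadjusted p under 0.05, against 0.555% and 1.89% of all probe sets. The sign of that median turned with letter as a block, at 0.017, without the 1% array of letter D at 0.5 h, at 0.057, and without the 1% array of letter F at 48 h, at 0.23.

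**Figure D4:**
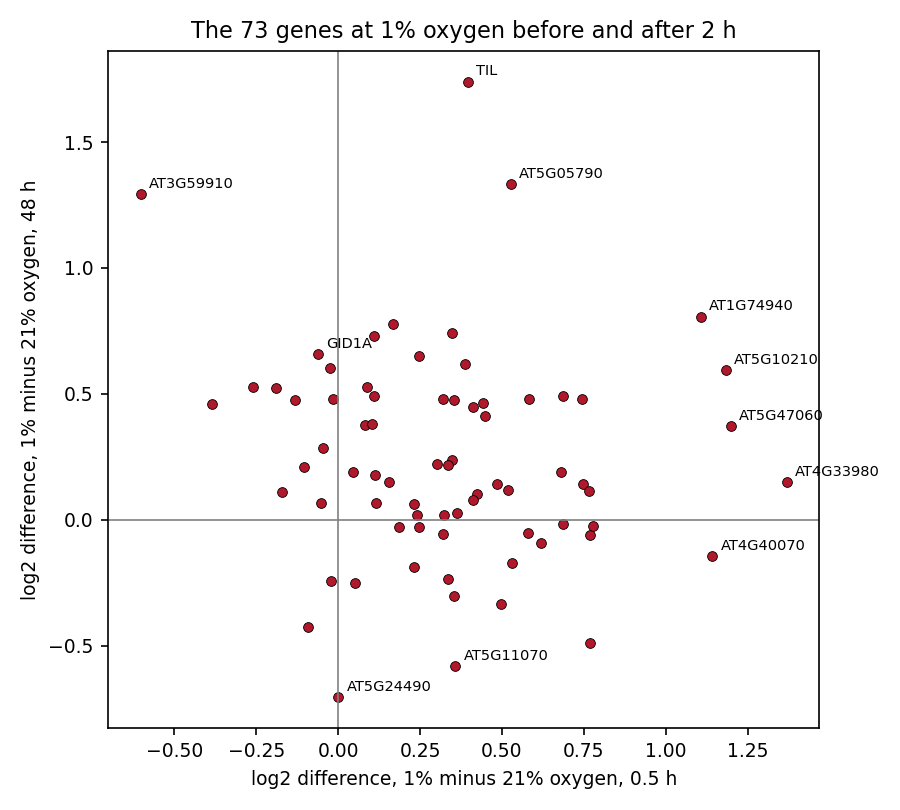
Log2(signal + 6) difference of each of the 73 genes, 1% minus 21% oxygen, after 0.5 h (x axis) and after 48 h (y axis), from limma over 24 arrays, with 11 genes labelled. TIL, AT5G05790 and AT3G59910 lie highest at 48 h, at 1.74, 1.33 and 1.29, and AT3G59910 is the lowest at 0.5 h, at -0.60.

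Some of the 73 genes also differed between durations under normal air. Roots of both durations were in darkness, so time in darkness, plant age and time in the gas stream cannot be told apart. Between 48 h and 0.5 h at 21% oxygen, limma called 5 of the 73 genes as higher at 48 h and 0 as lower, against 1.29% and 1.58% of all probe sets. At an unadjusted p under 0.05, 20 were higher and 3 lower, against 7.64% and 8.54% of all probe sets. The median difference was 0.30, against -0.004 for the bright probe sets, and all 48 h controls lay above all 0.5 h controls for 25 genes, against 13.6%, and below them for 3, against 15.2%. With letter as a block limma called 9 of the 73 as higher and 3 as lower, against 4.30% and 5.29% of all probe sets. Without the arrays of letter B it called 3, all higher, against 1.12%, and with the durations compared alone it also called 3, against 0.947%.

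AT2G15960 rose most, with controls at 649.8, 689 and 1046 at 48 h and 147, 175 and 23.7 at 0.5 h, a difference of 3.06 ± 0.61 (SE), adjusted p = 0.0127 by limma. The 48 h controls all stood above those of 0.5 h, of which the array of letter G was far below the others, and without that array the adjusted p was 0.0596, and 0.0544 without the 48 h control of letter F. AT1G72060, a small protein of the serine protease inhibitor kind, had 160.2, 273 and 575 at 48 h and 38.5, 57.7 and 21.3 at 0.5 h, a difference of 2.81 ± 0.49 (SE), adjusted p = 0.0059. AT1G19540, of the isoflavone reductase-like family, had 114, 121 and 109 and 44.1, 27.3 and 31.9, a difference of 1.60 ± 0.29 (SE), adjusted p = 0.00873. AT1G72060 and AT1G19540 kept the call with each single array left out.

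AT5G10210 had 356, 260.1 and 136 at 48 h and 111, 51.1 and 73.7 at 0.5 h, a difference of 1.56 ± 0.41 (SE) with adjusted p = 0.0499 by limma. AT1G23850 had 169, 188 and 165 and 99.0, 76.5 and 93.0, a difference of 0.92 ± 0.22 (SE) with adjusted p = 0.0326. The call of AT1G23850 was lost with letter as a block, at a difference of 0.66 and adjusted p = 0.099, and with any 1 of the 6 controls of these durations left out, and that of AT5G10210 with any of them but the 48 h control of letter F. At 48 h AT2G15960 had 1489 and 529 at 1%, 596 and 1216 at 4% and 806, 628 and 849 at 8%, a range that overlapped normal air. At 2 h it had 649 and 453 at 1%, 274 and 227 at 4%, 125 and 192 at 8% and 83.1, 201 and 133 in normal air, with both 4% arrays above all controls and the 8% arrays among them.

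By role, several of the genes fell into known families, which were put together after the values were seen and so carry no test. Of the FLZ zinc finger proteins, AT5G47060 and AT1G74940 had 1% differences of 1.20 and 1.11 at 0.5 h, and AT3G22550 had -0.26. AT3G22550 had 85.1 and 90.6 at 1%, 139.5 and 81.1 at 4%, 120.0 and 50.1 at 8% and 57.9, 29.1 and 27.2 in normal air at 2 h, so that its 1% and 4% arrays overlapped, unlike those of the other two. The RING-type ligases AT4G40070, AT1G71980, AT2G18670 and AT1G66620 had 1% differences of 1.14, 0.23, 0.23 and 0.32 at 0.5 h. At 2 h all of these ligases had positive 4% minus 8% differences, between 0.27 and 0.66, with SEs of 0.24 to 0.47. So had 67 of the 73 genes, whose median was 0.43, so this is no trait of the ligases.

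The prolyl 4-hydroxylases AT1G20270 and AT3G28480 had 1% differences of -0.025 and 0.35 at 0.5 h and of 0.60 and 0.48 at 48 h. AT3G28480 had 352 and 328 at 1%, 253 and 208 at 4%, 183 and 175 at 8% and 170.1, 188 and 162 in normal air at 2 h. In both enzymes the 4% arrays lay above the 8% arrays at 2 h, as they did for 42 of the 73 genes. Of the transcription factors, the ERF proteins AT5G61590 and AT3G60490, MYBC1 and AT5G05790 had 1% differences of 0.11, 0.11, 0.16 and 0.53 at 0.5 h. The B3 domain factor AT3G11580, described above, had the largest, 0.78. Of these AT3G60490 had 641 and 123 at 1% against 182, 144 and 183 in normal air at 48 h, with the array of letter A above and the array of letter F below all controls.

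Hormone genes differed among themselves. GID1A had 309 and 304 at 1%, 204 and 254 at 4%, 136 and 202 at 8% and 107, 156 and 149 in normal air at 2 h, with both 4% arrays above every 8% and control array. GH3.3, an enzyme that conjugates auxin to amino acids, had 439.9 and 101 at 1%, 64.0 and 55.0 at 4%, 68.2 and 42.6 at 8% and 71.2, 159 and 26.7 in normal air, and EXO, a gene induced by brassinosteroid, had 111 and 195 at 1% and 223, 66.2 and 91.2 in normal air. For GH3.3 and EXO the spread among the controls of 2 h was as wide as the difference that chose them, and the 1% arrays overlapped the controls. The phosphatidylinositol 4-kinases AT1G26270 and AT1G64460 had 4% minus 8% differences of 0.71 and 0.66 at 2 h, and the protein kinases AT1G07870, AT4G01330 and AT1G66880 had 0.89, 0.48 and 0.35. Of the aspartyl proteases, AT5G19120 had 0.30 and AT1G66180 0.43. Over the 73 genes the median of this comparison was 0.43, with 67 above 0.

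Beside the 37 genes over the upper bound, the 73 genes had smaller medians in each comparison of a low level with normal air at 0.5 and 48 h, with no test of that difference. Medians of the 73 genes and of the 37 were 0.34 and 1.13 at 1%, 0.23 and 1.29 at 4%, and 0.16 and 0.63 at 8% after 0.5 h. After 48 h they were 0.19 and 0.92 at 1%, 0.19 and 0.97 at 4%, and 0.014 and 0.32 at 8%. On the 1% array of letter F at 48 h, where the 73 had a median of -0.15, the 37 had 0.36, and on that of letter A they had 1.53. Limma called 7, 6 and 1 of the 37 as higher at 1%, 4% and 8% after 0.5 h, and 0 of the 73. Between 48 h and 0.5 h in normal air the order of the medians was the other way, with 0.30 for the 73 genes and 0.15 for the 37. By calls it was not, as limma called 5 of the 73 and 5 of the 37 as higher, against 1.29% of all probe sets.

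The 73 genes lay on all 5 nuclear chromosomes, with 24, 10, 13, 10 and 16 on chromosomes 1 to 5, against 1570, 899, 1253, 898 and 1458 of the bright probe sets. There were 6 pairs of the 73 genes within 20 kb of each other in the RefSeq annotation of TAIR10.1, which are AT1G26270 with AT1G26300, AT1G71980 with AT1G72060, AT3G60490 with AT3G60520, AT4G15120 with CCT2, AT5G11070 with AT5G11090, and AT5G19120 with AILP1. Such pairs were not particular to the 73 genes. The 63 genes that fell by the same size in both letters had 5, and the 37 over the upper bound had 0. The 6129 bright probe sets, a far denser set, had 4606. AILP1, an aluminium-induced protein, had 964 and 736 at 1%, 717 and 389 at 4%, 324 and 327 at 8% and 244, 325 and 271 in normal air at 2 h. Its neighbour AT5G19120 had 1734 and 1913 at 1%, 896 and 1172 at 4%, 527 and 1312 at 8% and 556, 888 and 907 in normal air, so that its 8% arrays spanned the controls while those of AILP1 lay at their upper end. Mean signals of the 73 genes ran from 41.0 to 1643 with a median of 141.9, against 109.5 for the bright probe sets.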

How the data were processed

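The deposited values are linear intensities, 1 signal per probe set and array, made with MAS5 per the submitters' processing notes, with the version and detection calls not given in the sources used here. On each array the 2% trimmed mean of the deposited signals is 100. That scaling was kept, and log2(signal + 6) was used, where 6 lies near the 20th percentile of all values. A scaled mean hides any change in total RNA, and fold changes on this scale understate those of dim genes.

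Of 22810 probe sets, 64 controls, 503 with several genes and 8730 not named in the annotation were left out, which left 13513, of which 13484 have a RefSeq locus (TAIR10.1). Of the 73 genes, 10 have a symbol other than the locus. No other columns of per-sample values were found (0). Groups follow the array titles. For the 8% array of letter B at 48 h the protocol field names both the lowered level and the control, and its title was followed. Without it the 8% median at 48 h was 0.039. Precision is limited by 2 or 3 arrays per group.

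Limma 3.58.1 in R 4.3.3 was fitted with 1 mean per group, an intensity trend and two-sided tests for 11 comparisons, with 13 residual degrees of freedom. The fit was also run on simulated data with independent noise on each array and no effect of the letter. That run therefore does not cover arrays whose deviations are shared within a letter. The genes and the lists were chosen with earlier results of these data known. Named are called genes, the genes with the highest and lowest differences among those without overlap (1% at 48 and 0.5 h, 4% minus 8% at 2 h), genes on the low-oxygen list, and those next to the bounds. The 16 keyword lists of function were searched in gene symbols and synonyms alone. They matched 0 of the 73 genes, of which 10 have a symbol other than the locus, and 251 of the 6129 bright probe sets. The 0 therefore does not show that the 73 genes lack these functions. Roles of loci without a symbol, and the families, come from general knowledge.

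Deviations of arrays with the same letter correlated by over 0.1 in 6 of 6 pairs at 0.5 h and in 12 of 12 at 48 h, and in 5 of 8 at 2 h. The letter therefore pairs arrays at 0.5 and 48 h. Alternatives were quantile normalization, centring on the median, pseudocounts of 1.5 and 24, a mean signal of 40 or more, no intensity trend, all 28 arrays, only the durations compared, the letter as a block, bounds of 0.8 and 1.8 or of 0.6 and 2.2, each array left out, and, chosen after seeing the data, leaving out the arrays of letter B.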

Additional observations from a re-analysis of the deposited data

Results flagged for a closer look

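AT3G59910 stands out because every 1% array lay below normal air at 0.5 h and above it at 48 h. Signals at 0.5 h were 33.0 and 37.2 at 1% and 48.6, 50.9 and 72.2 in normal air, and at 48 h they were 202 and 77.1 at 1% and 33.0, 46.7 and 69.3 in normal air. The change between the 2 responses was 1.90 ± 0.50 (SE) on the log2 scale, with adjusted p = 1.00 by limma, so the difference did not pass the test.

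Among the 5478 probe sets with a mean signal of 40 or more that match no listed gene or several genes, 76 met the same bounds in letters E and F. They are not analysed here by gene.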

How the results depend on the processing

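In 9 of the 11 comparisons, the count of called genes among the 73 changed under 1 setting or none. At 1% for 48 h the count was 0, it was 3 with letter as a replicate block, and it ran between 0 and 8 with single arrays left out, the 8 without the array of letter F. At 4% for 48 h it was 0, and 1 with the replicate block. Between 48 h and 0.5 h in normal air the count was 5, and it was 8 with a mean signal of 40 or more, 8 with all 28 arrays, 12 with the replicate block, 3 with the durations compared only, 3 with bounds of 0.8 and 1.8, 3 without the arrays of letter B, and between 2 and 5 with single arrays left out. Median differences of the 73 genes changed sign for 1% at 48 h, which ran between -0.15 and 0.61 with single arrays left out, for 8% at 48 h, between -0.0054 and 0.066, and for the 1% response at 48 h minus 0.5 h, between -0.43 and 0.23, which was 0.017 with the replicate block. Centring on the median brought the last to -0.023. In normal air, 48 h against 0.5 h, the block kept 4 of the 5 called genes and dropped AT1G23850. It also added calls there to reach the 12, with 3 genes lower where the main fit had none. Apart from these and the calls added at 1% and 4% for 48 h, it changed no call among the 73 genes. Of the medians under all alternatives 156 moved by less than the spread between arrays (or than 0.1 where durations were compared), 26 by more, and 5 changed sign. Causes were not tested, apart from fewer or more arrays and genes in the settings themselves.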

Other observations

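Some of the 73 genes not described above are given here for their levels at 2 h, chosen after their values were seen. The 1% arrays and controls E and F were used by the rule, so where they stand is again a description. TUA1, an alpha tubulin of microtubules, had 108 and 118 at 1%, 113 and 90.4 at 4%, 72.7 and 64.9 at 8% and 45.9, 47.7 and 52.7 in normal air, with every lowered-level array above all controls. AT1G23850, one of the genes called higher at 48 h than at 0.5 h in normal air, had 245 and 348 at 1%, 183 and 191 at 4%, 116 and 147 at 8% and 93.4, 81.7 and 94.1 in normal air, again without overlap of a lowered level with the controls. PSB27, a factor of photosystem II assembly, had 164 and 123 at 1%, 62.9 and 79.4 at 4%, 41.2 and 71.4 at 8% and 46.5, 50.1 and 66.5 in normal air, so that its 8% arrays spanned the controls.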
